A study of Homo sapiens with 2 samples.

Results

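The interferon regulatory factor genes IRF1, IRF2, IRF4 and IRF8 and the repressor gene PRDM1 were examined in LOUCY, an established human line of T-cell acute lymphoblastic leukaemia (T-ALL), grown without any stated treatment. The mark mapped was acetylation of histone H3 at lysine 27 (H3K27ac), which is found at active promoters and enhancers. Peaks of the deposited hg19 list were taken as members when they overlapped the gene body, or the 20 kb on either side of it, by at least 1 bp. The 5 windows held 25 of the 52203 peaks. The series held 1 H3K27ac ChIP library and 1 input library, from sheared chromatin that was not immunoprecipitated. After filtering by the peak caller, 54357332 ChIP tags and 71932640 input tags were kept. There were no replicates, so every value describes these libraries and nothing was tested. H3K27ac is a mark on chromatin, and no RNA was measured.

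Interferon regulatory factors share a DNA-binding domain with conserved tryptophans and bind elements built on the letters GAAA at interferon-responsive genes. IRF1 is an activator induced by interferon gamma, and IRF2, which binds the same elements, is best known for opposing it. IRF4 and IRF8 are largely restricted to lymphoid and myeloid cells and bind DNA together with partners such as PU.1, IRF4 acting in activated lymphocytes and plasma cells and IRF8 in dendritic cells, monocytes and B cells. PRDM1 encodes BLIMP-1, a zinc finger transcriptional repressor that drives the terminal differentiation of plasma cells and effector T cells and whose binding sequence resembles that of the interferon regulatory factors.

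Sequences upstream of start sites are shown because the genes parted there: IRF1 and IRF4 have upstream sequences of like composition, and only that of IRF1 belongs to a gene whose 5′ end was under a peak. PRDM1 is shown at both start sites for which a sequence was at hand, because its peaks lay to either side of the first of them. RefSeq includes start sites of PRDM1 further upstream, which are not shown. Each line holds the 250 bases before a start site, from RefSeq in GRCh38.p14, read 5′ to 3′ on the strand of the gene. The windows are chr5:132490774-132491023 on the minus strand for IRF1, and on the plus strand chr6:391502-391751 for IRF4, chr6:106086086-106086335 for the first PRDM1 site and chr6:106098691-106098940 for the second. Capitals mark the matches found in a search of both strands for TTCNNNGAA (the GAS element of interferon gamma responses, the same on both strands), a pair of GAAA with 2 letters between (an element of interferon regulatory factors) and TATAAA. The first 2 motifs can share letters.
IRF1: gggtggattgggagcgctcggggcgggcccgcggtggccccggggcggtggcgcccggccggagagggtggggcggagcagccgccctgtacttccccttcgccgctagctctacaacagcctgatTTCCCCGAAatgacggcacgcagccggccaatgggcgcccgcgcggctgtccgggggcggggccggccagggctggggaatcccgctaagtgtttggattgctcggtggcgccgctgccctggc
IRF4: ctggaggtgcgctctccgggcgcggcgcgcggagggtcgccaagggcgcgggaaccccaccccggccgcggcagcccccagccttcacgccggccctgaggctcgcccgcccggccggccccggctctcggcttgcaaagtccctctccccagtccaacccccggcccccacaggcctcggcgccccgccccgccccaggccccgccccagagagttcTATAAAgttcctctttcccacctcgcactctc
PRDM1 first site: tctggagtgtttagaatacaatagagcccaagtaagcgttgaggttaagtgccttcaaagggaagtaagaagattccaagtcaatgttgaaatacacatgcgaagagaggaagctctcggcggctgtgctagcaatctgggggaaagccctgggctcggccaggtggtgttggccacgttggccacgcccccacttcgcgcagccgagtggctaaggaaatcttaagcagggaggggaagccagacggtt
PRDM1 second site: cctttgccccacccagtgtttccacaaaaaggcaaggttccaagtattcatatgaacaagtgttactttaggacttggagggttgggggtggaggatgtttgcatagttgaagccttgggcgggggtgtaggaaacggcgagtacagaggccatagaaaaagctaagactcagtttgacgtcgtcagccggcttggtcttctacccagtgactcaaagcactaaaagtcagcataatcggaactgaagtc

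The IRF1 sequence was 74.4% G or C with 29 CG dinucleotides, and that of IRF4 was 76.0% G or C with 28. The PRDM1 sequences had 53.6% and 11 CG dinucleotides at the first site and 48.8% and 7 at the second, against medians of 58.0% and 11 over 35114 human start sites. IRF1 held 1 match to TTCNNNGAA, which started 124 bases before the start site and which 6.57% of the 35114 sequences also hold. IRF4 held 1 match to TATAAA, 32 bases before the start site, a match present in 10.7% of sequences. The pair of GAAA, found in 3.02% of sequences, had no match in these 4 windows. A match describes letters only. RefSeq coordinates are of another build than the peaks and were not converted, so sequences and peaks are tied only through the 5′ end of the gene. No window at the main start sites of IRF2 and IRF8 was used.

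Peaks lay over the 5′ ends of IRF1 and IRF2. None lay within 1 kb of the 5′ ends of IRF4, IRF8 and PRDM1, taking the gene ends of the rule. In a small set of 38 protein-coding genes with hg19 positions, 68.4% had a peak within 1 kb of a start site. There a peak at any start site of a gene counted, whereas each of the 5 genes was examined at 1 end only. The 5′ end of PRDM1 was 1.36 kb from the nearest peak, that of IRF4 14.2 kb and that of IRF8 36.5 kb. Gene ends in the rule were rounded to 1 kb, and with a limit of 2.5 kb the count became 3 of 5 genes, with PRDM1 added. IRF4 therefore had no called H3K27ac near an upstream sequence nearly as rich in CG dinucleotides as that of IRF1.

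**Figure D1:**
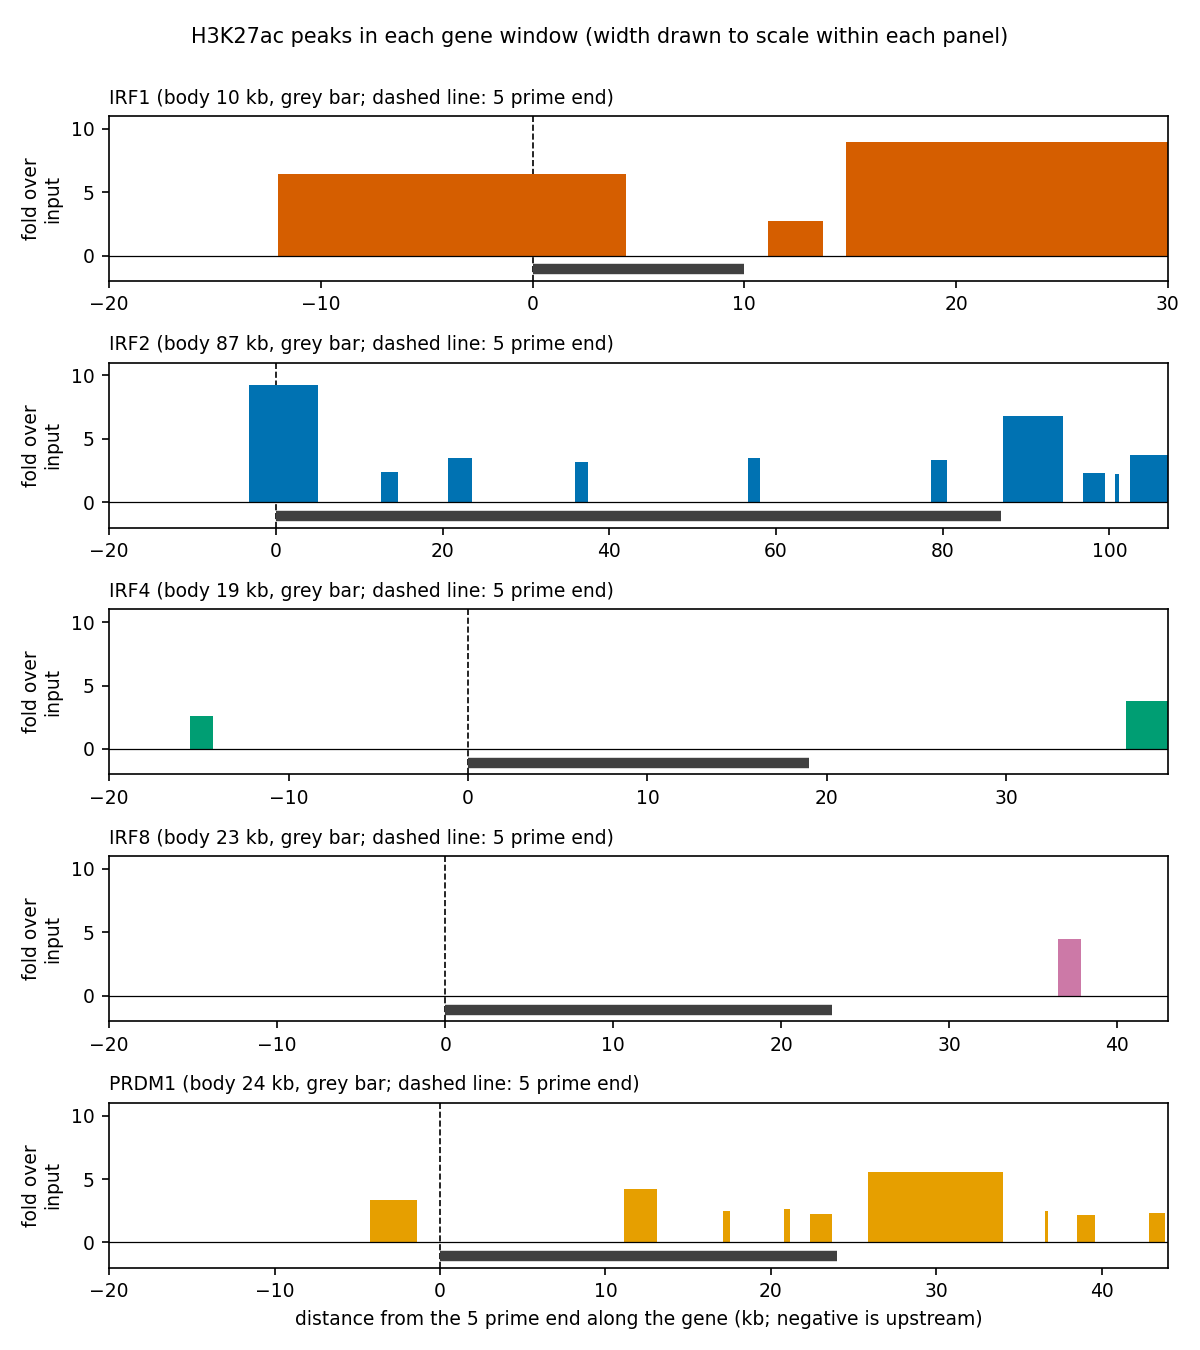
H3K27ac peaks in the 5 gene windows, 1 panel per gene, with distance from the 5′ end in kb along the direction of transcription on the horizontal axis and fold over input on the vertical axis; each coloured block is 1 peak cut at the window's edge, the grey bar is the gene body and the dashed line the 5′ end. Blocks cross the dashed line at IRF1 and IRF2 only, and no block overlaps the bodies of IRF4 and IRF8.

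IRF1 (chromosome 5, 131.817 to 131.827 Mb, minus strand, 5q31.1) had 3 peaks, of which 2 were among the broad ones of the list. The first, chr5:131822591-131839028, was 16438 bp wide and ran from 12.0 kb upstream of the 5′ end to 4.41 kb into the gene. Its fold, the ratio of ChIP to local input given by the authors' peak caller, was 6.43, and its -log10 q was 20.6. The 3′ part of the gene was free of peaks. A narrower peak, chr5:131813291-131815893, began 1.11 kb past the 3′ end, with a fold of 2.69. The third, chr5:131785655-131812211, began 4.79 kb past the 3′ end, was 26557 bp wide (rank 225 by width) and had a fold of 8.99. It was the strongest peak of the window, and 8.25% of all peaks had a fold as high. Of this peak 15.2 kb lay inside the window and the rest extended away from IRF1. In the RefSeq gene order the next genes on that side are the noncoding CARINH and, further on, the carnitine transporter gene SLC22A5, with the cytokine gene IL5 on the other side. Peaks were not assigned to any of these genes.

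IRF2 (chromosome 4, 185.309 to 185.396 Mb, minus strand, 4q35.1), the longest gene at 87 kb, had 10 peaks. The peak over its 5′ end, chr4:185390953-185399277, was 8325 bp wide and reached from 3.28 kb upstream to 5.05 kb into the gene. It had a fold of 9.21, the highest of the 25 peaks, and a -log10 q of 51.9, and 7.44% of all peaks were as high in fold. In the small gene set 26 genes had a marked promoter, with a median fold of 7.01, taking the highest over the start sites of a gene. Of these, 4 had a fold at least as high as IRF2, and 19 at least as high as IRF1. Inside the gene there were 5 further peaks, 1406 to 2873 bp wide, with folds of 2.35 to 3.53. The second strong peak, chr4:185301513-185308737, 7225 bp wide with a fold of 6.81, lay 0.263 kb past the 3′ end of the body as rounded. The strong signal of IRF2 thus sat at its ends, with weak peaks between. The remaining 3 peaks lay beyond it on the 3′ side, with folds of 2.19 to 3.74, the last of them reaching over the edge of the window.

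IRF4 (chromosome 6, 0.392 to 0.411 Mb, plus strand, 6p25.3) had 2 peaks, both in the flanks. The upstream peak, chr6:376500-377777, was 1278 bp wide with a fold of 2.56 and a -log10 q of 3.66. The downstream peak, chr6:428700-431093, was 2394 bp wide with a fold of 3.75 and a -log10 q of 6.99. Between them lay 50.9 kb with no peak, which held the whole gene. Of the 52180 stretches between neighbouring peaks of a chromosome, 19.9% were as long. Long stretches take up more sequence than short ones, so a gene falls in one more often than this share of stretches tells. The neighbouring coding genes in RefSeq order are DUSP22 and EXOC2, and either peak is separated from the body of IRF4 by over 10 kb.

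IRF8 (chromosome 16, 85.933 to 85.956 Mb, plus strand, 16q24.1) had a single peak, chr16:85969455-85970857, which began 13.5 kb past its 3′ end. This peak was 1403 bp wide, with a fold of 4.47 and a -log10 q of 10.1, and 33.3% of all peaks were as high in fold. Upstream of it, 135 kb with no peak spanned the body of IRF8 and 98.1 kb before its 5′ end. The next peak on the other side began 612 kb beyond the window. Of all stretches between peaks 7.19% reached 135 kb, which as at IRF4 is a share of stretches and not of sequence. In mouse, enhancers downstream of Irf8 are known to act in dendritic cell development, but whether this peak matches any of them was not examined.

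PRDM1 (chromosome 6, 106.534 to 106.558 Mb, plus strand, 6q21) had 9 peaks, most of them weak and narrow. The strongest, chr6:106559872-106568024, began 1.87 kb past the 3′ end, was 8153 bp wide and had a fold of 5.58 and a -log10 q of 26.5. Second came a peak inside the gene, chr6:106545126-106547104, 1979 bp wide with a fold of 4.19 and a -log10 q of 14.7, at 11.1 to 13.1 kb from the 5′ end. The start sites of the PRDM1 sequences printed above are 12.6 kb apart in GRCh38.p14, and an internal start site of PRDM1 is known to give a shorter form of the protein. The first of these sites lies 23.6 kb from the gene's end, against 24 kb in the rule. If it is the 5′ end of the rule, a site 12.6 kb further on lies within the inner peak. This rests on distances and on ends rounded to 1 kb, since positions were not carried between builds. Upstream of the 5′ end of the rule, chr6:106529786-106532640 was 2855 bp wide with a fold of 3.39 and ended 1.36 kb before it. The other 6 peaks had folds of 2.18 to 2.65 and widths of 204 to 1340 bp, 204 bp being the fragment length set by the caller and the smallest width in the list. Gaps between the 9 peaks ran from 1.20 to 12.5 kb, the longest being the one that held the 5′ end.

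**Figure D2:**
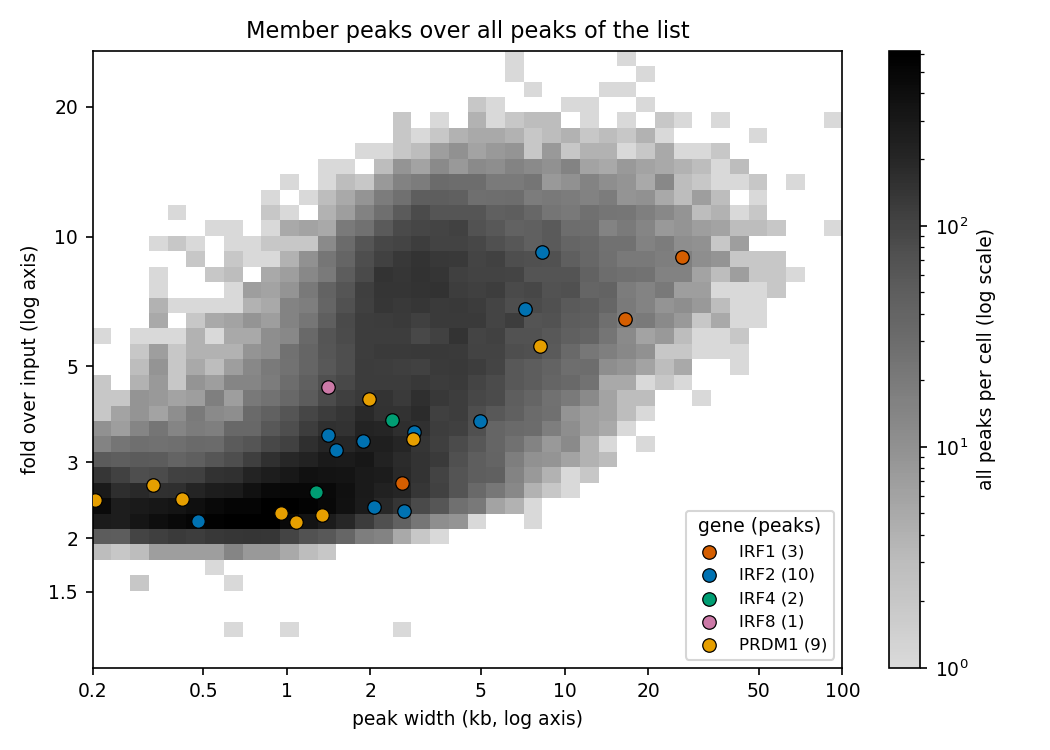
Width in kb (horizontal, log axis) and fold over input (vertical, log axis) of the 25 peaks, coloured by gene, over the counts of all 52203 peaks in grey. The IRF1 points of 16438 and 26557 bp lie towards the broad side of the cloud, and 6 of the 9 PRDM1 points lie in its dense low part, below a fold of 3.

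As a group the 25 peaks did not stand apart from the list. Their median fold was 3.36, against 3.08 over all peaks, and their median width 1979 bp, against 1670 bp. A fold of at least 6 was reached by 4 of 25 peaks, against 23.2% of all peaks, and all 4 were at IRF1 and IRF2. None reached 10, against 5.21% of all peaks. A -log10 q of at least 10 was reached by 7 of 25, against 36.8%, and a fold below 3 was found for 11 of 25, against 48.2%. Only the 2 broad IRF1 peaks were 10 kb or wider, a width that 4.37% of all peaks had. Peaks differed between the genes and also within them. Folds ran from 2.69 to 8.99 at IRF1, 2.19 to 9.21 at IRF2, 2.56 to 3.75 at IRF4 and 2.18 to 5.58 at PRDM1.

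The covered sequence also differed between the genes. Peaks covered 68.5% of the IRF1 window (34.3 of 50 kb), 27.1% of the PRDM1 window (17.3 of 64 kb), 25.9% of the IRF2 window (32.9 of 127 kb), 6.07% of the IRF4 window (3.58 of 59 kb) and 2.23% of the IRF8 window (1.40 of 63 kb). When the chromosomes were laid out in tiles of the same lengths, 0.433% of tiles were covered as much as the IRF1 window, 4.66% as much as that of PRDM1 and 4.10% as much as that of IRF2. For IRF4 the share was 22.4% and for IRF8 35.0%. Among tiles with at least 1 peak, the shares were 1.10% for IRF1, 10.7% for PRDM1, 7.38% for IRF2, 53.2% for IRF4 and 80.8% for IRF8. Peaks as many as those at PRDM1 were found in 0.666% of tiles, as many as at IRF2 in 4.12% and as many as at IRF1 in 13.2%. These counts include weak peaks. At a -log10 q of at least 10, PRDM1 kept 2 of 9 peaks, IRF2 2 of 10 and IRF1 2 of 3, and tiles were not counted again. At least 2 peaks, as at IRF4, were found in 25.9% of tiles of that length. At least 1 peak, as at IRF8, was found in 43.3%. Tiles include gene deserts and unsequenced gaps, whereas the windows were centred on genes, so the shares place the windows on a scale and are no test.

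In all 5 genes the 20 kb downstream of the 3′ end were covered more than the 20 kb upstream of the 5′ end. How often other genes have this direction was not computed. The 5′ end of PRDM1 is that of the rule, and by the 117 kb of RefSeq its upstream part would lie inside the gene. The covered lengths were small at IRF4, 2.30 kb downstream against 1.28 kb upstream, and at IRF8, 1.40 kb against 0. With flanks of 10 kb the windows of IRF4 and IRF8 held 0 peaks, so for these genes the direction rests on the outer part of the flanks. At IRF1 the downstream share was 89.1% and the upstream share 60.1%. At IRF2 they were 74.3% and 16.4%, and at PRDM1 52.0% and 14.3%. At IRF4 they were 11.5% and 6.39%, and at IRF8 7.01% and 0%. Within the gene bodies the covered share was 44.1% at IRF1, 17.0% at IRF2 and 16.9% at PRDM1. The bodies of IRF4 and IRF8 were not covered. IRF2 and PRDM1 were alike in the covered share of their bodies, while only IRF2 of that pair had a peak over its 5′ end.

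**Figure D3:**
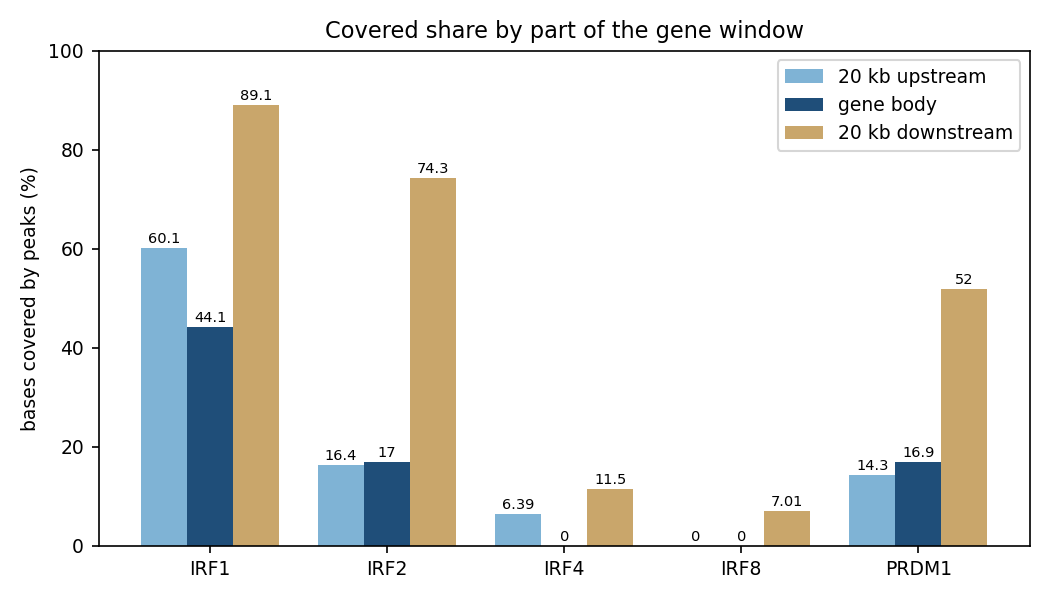
Share of bases covered by peaks in percent (vertical axis from 0) for each gene, in the 20 kb upstream, the gene body and the 20 kb downstream. Gene ends are those of the rule, which for PRDM1 leave out start sites further upstream. The downstream bar is the highest of the 3 in every gene, from 7.01% at IRF8 to 89.1% at IRF1.

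Fold is a ratio to local input, and the input differed between the loci. From the fold and the -log10 p of a peak, the input level that would give both was worked out, and with it the implied ChIP pileup, both in fragments. The strongest peaks of IRF1 and IRF2 had nearly the same fold, 8.99 and 9.21, yet their -log10 p was 39.5 and 54.0. The implied input was 5.76 at the IRF1 peak and 8.18 at the IRF2 peak, and the implied pileup 59.7 and 83.6. The strongest PRDM1 peak, with a fold of only 5.58, had an implied input of 10.5 and an implied pileup of 63.0. By fold the strongest peak of IRF1 ranked 4309 in the list and that of PRDM1 13431. By -log10 p they ranked 7045 and 10774, in the same order. By implied pileup they ranked 9429 and 8515, so the order of the pair turned under that measure alone of the 3. The turn rests on implied pileups of 59.7 and 63.0, which are close and approximate for broad peaks. IRF2 came first of the 5 genes by fold, by -log10 p (rank 3506) and by implied pileup (rank 3717).

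The median implied input of all peaks within 5 Mb was 4.80 at IRF1 (161 peaks), 5.00 at IRF8 (230 peaks), 5.51 at PRDM1 (239 peaks), 6.52 at IRF2 (111 peaks) and 6.59 at IRF4 (179 peaks), against 6.34 over the whole list. The lowest implied input of all peaks was 4.11, also the background level of the caller, so a lower local input would not show. The value around IRF1 was the lowest of the 5. It was below the 5.83 of chromosome 5 as a whole, and the values around IRF2, IRF8 and PRDM1 were likewise below those of their chromosomes (7.02, 5.25 and 5.93), while that around IRF4 was above the 5.93 of chromosome 6. The folds of IRF1 are therefore set against a lower input than those of IRF2, and the part that input plays in the difference was not tested. Peaks within 5 Mb of IRF4 had a median implied input near that of the list, and those around IRF8 one below it. At the IRF4 peaks themselves the implied input was 8.66 upstream and 5.60 downstream. The body of IRF8 had no peak, so no implied input could be worked out there.

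**Figure D4:**
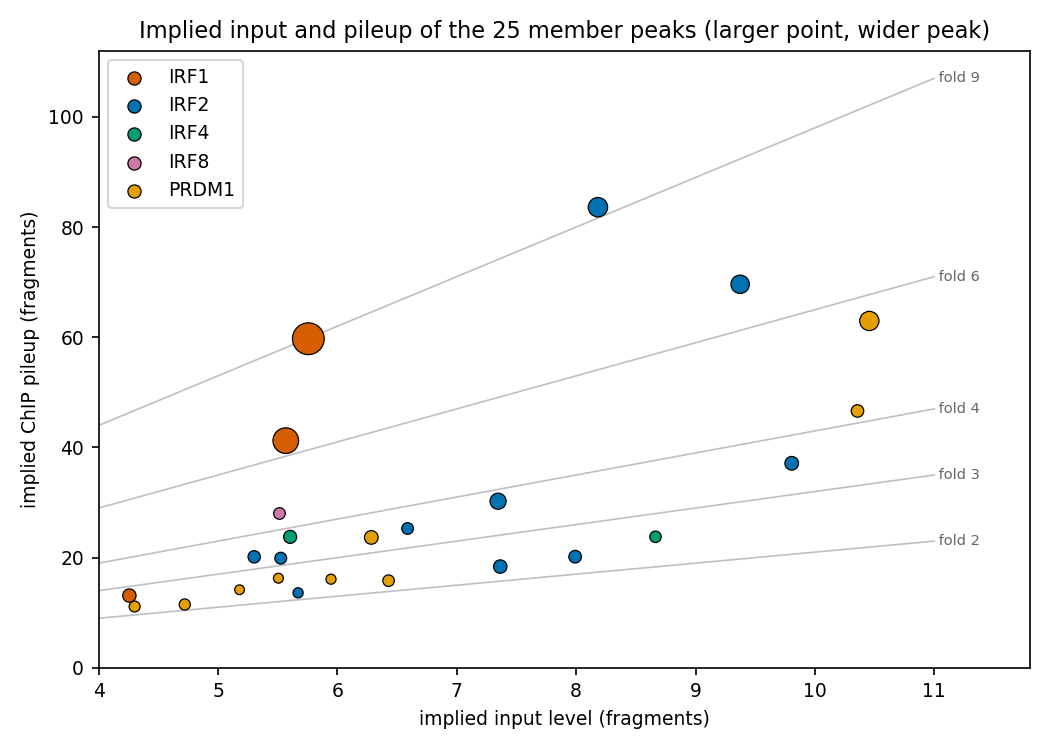
Implied input level (horizontal axis, fragments) and implied ChIP pileup (vertical axis, fragments) of the 25 peaks, coloured by gene, with point size growing with peak width and grey lines of equal fold. The strongest IRF1 point (input 5.76, pileup 59.7) and the strongest PRDM1 point (input 10.5, pileup 63.0) are at like heights but on different lines of fold.

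Neighbouring peaks within 12.5 kb were joined into 25510 regions and ranked by summed fold times width, and 5.57% of regions counted as large. Large regions touched the bodies of IRF1 and IRF2. The 5.57% is a share of regions, and the share of all genes touched by a large region was not computed. Large regions had a median span of 54.6 kb, against 2.92 kb for the others. The IRF1 region, chr5:131745027-131839028, spanned 94.0 kb with 8 peaks and ranked 78, the highest of the 5 genes. Its highest fold, 15.5, belonged to a peak outside the gene window. IRF2 was split over 3 regions. The region at its 3′ end, chr4:185262804-185317409, ranked 572 and was large, while the region with its 5′ end, chr4:185358586-185399277, ranked 2187 and was not. The PRDM1 region, chr6:106529786-106591201, held 10 peaks over 61.4 kb and ranked 2297. Joining within 5 kb left 0 of the 5 genes in a large region, and keeping only peaks with a -log10 q of at least 10 left 1, IRF1. Ranking by width alone gave 3, with PRDM1 added at rank 1385.

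The cell type could not be checked with marker genes. Of 15 marker genes of T cells, B cells and myeloid cells, 1 had an hg19 position at hand, the myeloid gene S100A9. It had no peak within 1 kb of a start site. Only 68.4% of the 38 genes of its set had such a peak, so 1 gene without a peak does not tell the cell type. Of 15 further genes of the family and the interferon pathway, among them IRF3, IRF7 and IFNAR1, 0 had an hg19 position at hand. They were not analysed here. Gene lengths in RefSeq were within 1 kb of the rule for IRF1 (9.165 kb), IRF2 (86.822 kb), IRF4 (19.692 kb) and IRF8 (23.448 kb). For PRDM1 RefSeq lists 117 kb, because it includes start sites further upstream, and from the first start site printed above to the gene's end it gives 23.6 kb, against 24 kb in the rule. Peaks at those further start sites were not counted here. The next peak before the PRDM1 window, chr6:106439784-106440950, lay 73.05 kb from its edge and had a fold of 5.02. Whether it lies at one of those start sites was not examined, since positions were not carried between builds. The lack of a peak at the 5′ end of PRDM1 thus holds for the end in the rule only.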

How the data were processed

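H3K27ac ChIP and input DNA of LOUCY were sequenced, 1 library each. Per the submitters' processing notes, Bowtie2, MACS2 and hg19 were used, with no alignment settings stated there. Per the file headers, the authors called broad peaks with MACS2 2.1.0.20140616, ChIP against input, with a q cutoff of 0.05, 1 tag kept per position, a fragment length of 204 bp and the larger library scaled towards the smaller. Duplicate removal took 13.2% of the 62626946 tags of the ChIP library and 3.07% of the 74212738 of the input library. It caps the highest peaks. The deposited fold is a ratio of ChIP pileup to local control. For each peak the authors' caller also gave a -log10 p-value and a -log10 q-value, used here to describe or rank peaks within the list. Each of the 52203 deposited pileup values was below 0, so none was used. Peak widths are end minus start plus 1.

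The members and lists were chosen with earlier results of these data known. All 5 genes are named; for each, the peaks at the 5′ end, of highest fold and of largest width are given, and all peaks where there were at most 6. Gene positions are those of the rule, rounded to 1 kb. The 5′ end followed the strand in the RefSeq promoter table, and for IRF2 textbook knowledge. The implied input level is the control level that, with a count of 1 added to it and to the pileup, gives both the fold and the Poisson -log10 p; it is approximate for broad peaks. Chromosome lengths came from circlize 0.4.16 and the 38 genes from the hg19 sample in GenomicFeatures 1.54.1. Overlap and solving were checked on simulated data. The motifs were chosen after the sequences had been seen. Scripts ran in Python 3.11.15 with pandas 2.3.3, numpy 2.4.6, matplotlib 3.10.9 and scipy 1.17.1.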

Additional observations from a re-analysis of the deposited data

How the results depend on the processing

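The 25 peaks became 13 at a -log10 q of at least 5, 7 at a -log10 q of at least 10, 7 at a fold of at least 4 and 11 in the gene bodies alone, since weak peaks or flanks were removed. With flanks of 10 kb there were 17, with 0 at IRF4 and 0 at IRF8, and with 50 kb 37. Peaks covered 24.6% of the 5 windows together, against 4.90% of the genome, gene deserts and unsequenced gaps included. The share of the windows was 16.2% at a -log10 q of at least 10 or at a fold of at least 4. Of the gene bodies 14.3% was covered. At that threshold on q the IRF4 window held 0 peaks and the IRF8 window kept 1. The genes with a peak at the 5′ end numbered 2, and also 2 under that stricter q or within 0.5 kb. The genes in a large region numbered 2, but 0 with joining within 5 kb and 1 under the stricter q. The median implied input was 5.95 over the 25 peaks, and 5.51 was the median of the 5 medians within 5 Mb. Ranks by -log10 p and by implied pileup were added after the data had been seen. No paired analysis was possible because each group is 1 library. A stretch with no peak means no call at this depth and threshold.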

Other observations

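Within 50 kb of the gene bodies, the peaks of highest fold at IRF1 and IRF2 lay outside the 20 kb windows, on the 3′ side in both cases. At IRF1 it was chr5:131752815-131767845, 49.2 kb past the 3′ end, 15031 bp wide with a fold of 15.5, rank 135 of the list. At IRF2 it was chr4:185262804-185278555, 30.4 kb past the 3′ end, 15752 bp wide with a fold of 10.8, rank 1850. Near PRDM1, chr6:106588035-106591201 lay 30.0 kb past the 3′ end, with a fold of 6.17, above the 5.58 of the strongest peak inside the window. None of these was assigned to a gene. With flanks of 50 kb, IRF4 gained 3 peaks with folds of 2.36 to 3.21 and IRF8 gained 0.

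Just inside the 20 kb limit were peaks with folds of 3.74 at IRF2 (15.5 kb from the gene), 3.75 at IRF4 (17.7 kb), 4.47 at IRF8 (13.5 kb) and 2.29 at PRDM1 (18.9 kb). The nearest outside it had folds of 2.92 at IRF1 (33.6 kb), 2.51 at IRF2 (22.8 kb), 2.70 at IRF4 (22.9 kb), 10.4 at IRF8 (98.1 kb) and 6.17 at PRDM1 (30.0 kb).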
